A study of Homo sapiens with 8 samples.

Results

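The 7 AP-1 transcription factor genes FOSL1, FOSL2, FOS, JUN, JUNB, JUND and ATF3 were examined for LSD1 occupancy in MDA-MB-231, a line of human breast cancer cells. Each gene was taken with 10 kb on either side in hg19 (GRCh37), as chr11:65649000-65678000 (FOSL1), chr2:28605000-28648000 (FOSL2), chr14:75735000-75759000 (FOS), chr1:59236000-59260000 (JUN), chr19:12892000-12915000 (JUNB), chr19:18380000-18403000 (JUND) and chr1:212728000-212805000 (ATF3). These windows held 42 of the 68148 LSD1 regions found over chromosomes 1 to 22 and X, and 106 of the 201526 deposited summits. LSD1 CUT&RUN, in which an antibody directs a nuclease to cut the chromatin around its target, was performed in parental cells and in RCOR2-KO1 cells, in which RCOR2 had been disrupted with CRISPR/Cas9, with 2 libraries of each genotype. Both genotypes were the same cell line without any further treatment named in the labels, and the lists come from LSD1 libraries alone, since the rabbit IgG libraries served the authors as input. The labels name a single knockout, KO1. The methods describe mixing several knockout clones in a sentence that follows another cell line, so whether KO1 is 1 clone or a mixture is not given in the sources used here. The loss of RCOR2 cannot be checked in lists of LSD1 summits, and the methods say that CUT&RUN was done 2 times without saying whether from separate cultures, so the p-values below measure only the spread between these libraries, which may be technical.

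AP-1 is a family of leucine zipper factors that bind DNA as dimers, in which a FOS protein pairs with a JUN protein and ATF3 pairs with itself or with JUN proteins. Its genes are classical immediate early and stress response genes, and FOSL1 is known as a highly expressed member of the family in basal-like breast cancer cells. LSD1 is a histone demethylase that removes methyl groups from histone H3, and it works in complexes with a CoREST protein, the family to which RCOR2 belongs, and with histone deacetylases.

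Each library is a list of MACS2 summits, the base of highest signal in a peak, with its significance as −log10 of p or of q. The lists held 47354 and 54467 summits in parental replicates 1 and 2, and 49586 and 50119 in KO1 replicates 1 and 2. Their lowest values were between 1.31 and 1.4 and their medians between 16.3 and 18.6. Sequencing depth, peak width and fold enrichment were not used here. The −log10 values move with depth, so a summit is described by its percentile among the summits of its library, with 100 for the highest value, and a change shared by all summits of a library cannot be seen on this scale. Summits at most 500 bp apart were joined into a region. Distances to a gene are measured from the ends of the gene implied by its window, which are exact to about 1 kb only, and the lengths they imply differed from the RefSeq gene lengths by at most 1.63 kb.

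LSD1 summits were present at all 7 genes in all 4 libraries. The windows held 26 and 27 summits in parental replicates 1 and 2, and 24 and 29 in KO1 replicates 1 and 2, so the genotypes overlapped. Over their 243 kb the windows had 1.73 regions per 10 kb, which was 7.45-fold the 0.232 per 10 kb of the whole genome. Regions in all 4 lists alone were at 0.658 per 10 kb in the windows and 0.122 in the genome. The genome was taken from the first to the last summit of each chromosome, and windows around other genes were not compared. ATF3 had 14 regions in the longest window, FOSL2 had 10, JUNB 6, FOSL1 5, FOS 3, and JUN and JUND 2 each. Per 10 kb of window the order was different, with JUNB highest at 2.61 and JUN lowest at 0.833.

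Most regions of these genes were found either in every list or in a single one, and those in every list were mostly strong. Of the 42 regions, 16 (38.1%) had a summit in all 4 lists, against 52.6% of all LSD1 regions, and 17 (40.5%) had one in a single list, against 21.7% of all regions. JUN and JUND had no region outside those of all 4 lists, whereas 13 of the 17 regions of a single list were at FOSL2 and ATF3. The 16 regions of all 4 lists had a median of 83.6 for the mean percentile over the lists, with a range of 15.7 to 95.8, whereas all 35861 such regions of the genome had a median of 60.1. In contrast, the members found in 1 or 2 lists had a median percentile of 11.7, against 17.1 for all regions of that kind, although the range reached 97.5. A mean percentile of at least 90 was found for 4 of the 16 (25%), against 10.9% of all regions in 4 lists. These 4 regions lay at FOSL2, JUNB, JUN and FOSL1, that is at 4 of the 7 genes, and 3.03% of the 117519 stretches of 25 kb along the genome held such a region, whereas the windows were 23 to 77 kb long. The plot of summits by gene shows the strong regions of JUNB, JUN and FOSL1 within 2.54 kb of the 5′ ends, that of FOSL2 inside the gene, and most of the weak ones at FOSL2 and ATF3.

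**Figure D1:**
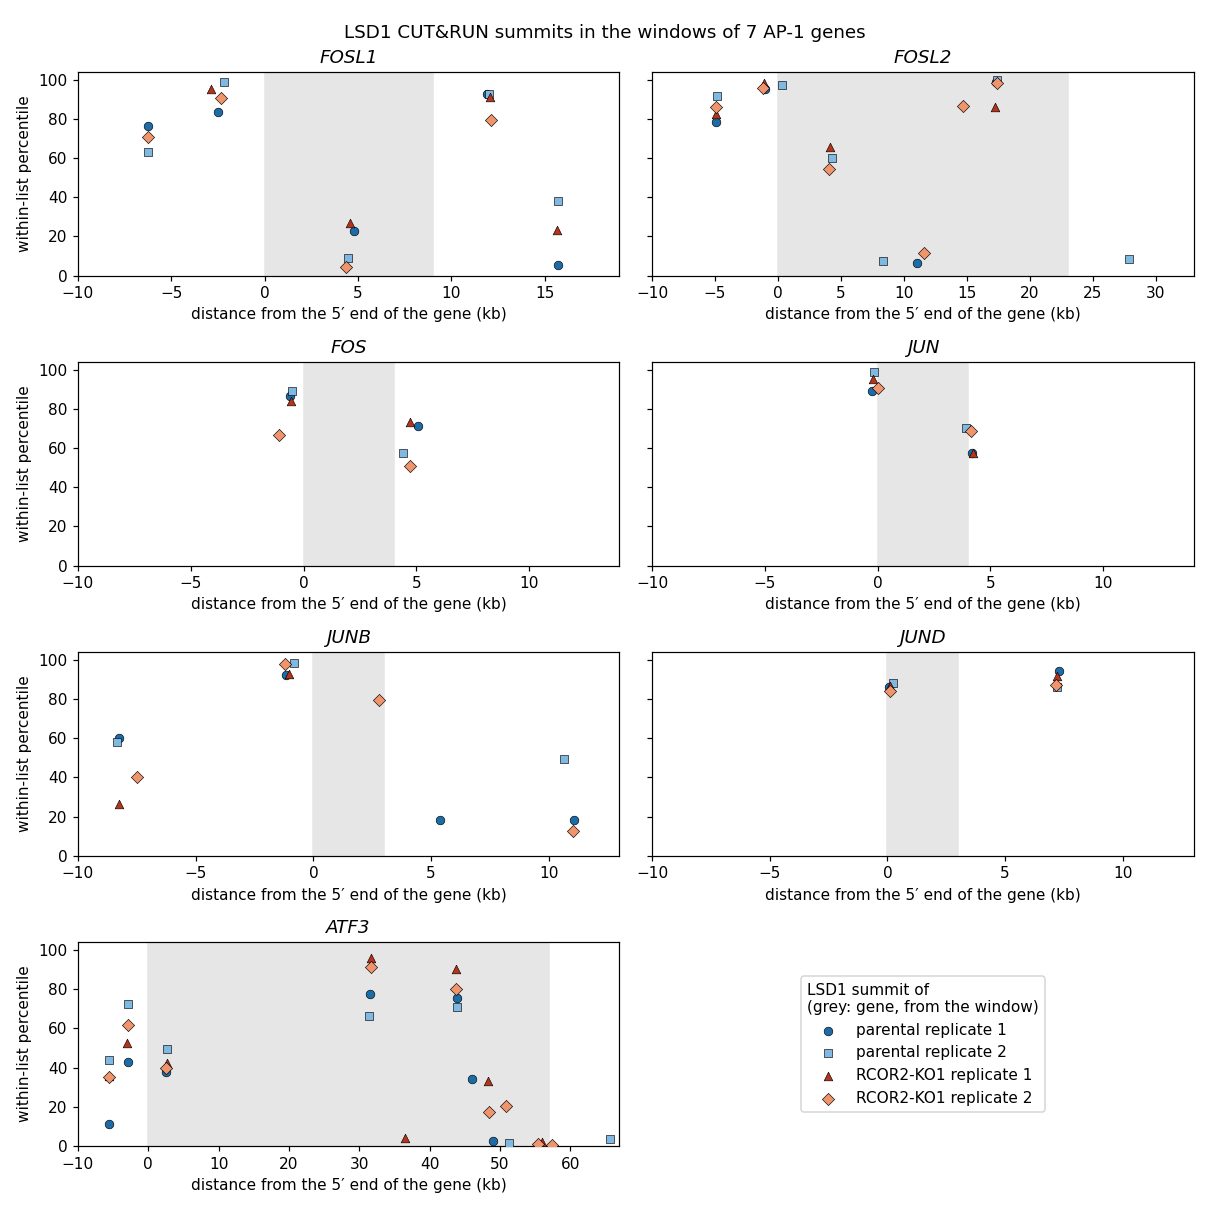
Each point is 1 LSD1 summit of 1 library, with its distance from the 5′ end of the gene in kb on the x axis and its percentile within its list on the y axis, and the grey band is the gene as implied by its window. Parental libraries are blue and RCOR2-KO1 libraries red or orange. Summits of all 4 libraries coincide near the 5′ ends of JUN, JUNB and JUND, and most summits below the percentile of 20 stand alone in FOSL2 and ATF3.

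Promoter sequences are shown for the genes whose 5′ ends had the LSD1 regions compared below, JUN, JUNB and JUND, and for ATF3. No region in all 4 lists lay within 2 kb of the outermost 5′ end of ATF3, which was also so for FOSL1, FOSL2 and FOS. At FOSL2 and FOS, however, every library had a summit within 2 kb of the 5′ end, and these summits were too far apart to be joined at 500 bp. The sequences are the 250 bases before the RefSeq start in GRCh38.p14, on the strand of the gene. JUN is chr1:58784048-58784297 (minus strand), JUNB chr19:12791236-12791485 (plus), JUND chr19:18281623-18281872 (minus) and ATF3 chr1:212565157-212565406 (plus). The capitals mark letters of sites known to be bound by AP-1 and ATF dimers. The letters searched, on both strands, were TGANTCA (TRE), TGACGTCA (CRE) and TGACATCA with its reverse complement TGATGTCA (TRE-like), and no match overlapped another.
JUN: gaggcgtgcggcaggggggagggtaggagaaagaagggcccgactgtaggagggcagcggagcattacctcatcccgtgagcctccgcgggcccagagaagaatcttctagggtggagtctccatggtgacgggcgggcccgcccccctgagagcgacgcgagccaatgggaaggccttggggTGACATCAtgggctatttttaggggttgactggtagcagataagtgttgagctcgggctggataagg
JUNB: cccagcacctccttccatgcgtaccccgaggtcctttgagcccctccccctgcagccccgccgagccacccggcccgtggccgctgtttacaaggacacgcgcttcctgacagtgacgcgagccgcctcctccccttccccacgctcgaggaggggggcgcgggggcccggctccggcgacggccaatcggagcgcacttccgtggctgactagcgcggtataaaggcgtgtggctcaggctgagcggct
JUND: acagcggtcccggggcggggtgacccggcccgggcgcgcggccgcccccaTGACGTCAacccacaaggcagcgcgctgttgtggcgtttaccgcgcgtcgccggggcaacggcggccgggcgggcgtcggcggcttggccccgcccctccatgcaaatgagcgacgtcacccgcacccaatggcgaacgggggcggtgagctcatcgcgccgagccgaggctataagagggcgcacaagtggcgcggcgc
ATF3: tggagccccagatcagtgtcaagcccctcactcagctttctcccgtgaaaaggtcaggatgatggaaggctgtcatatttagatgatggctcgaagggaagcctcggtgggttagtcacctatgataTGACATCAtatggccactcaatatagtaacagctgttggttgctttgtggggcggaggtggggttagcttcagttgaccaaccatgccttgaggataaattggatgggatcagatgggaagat
The TRE-like letters lay at −67 to −60 from the start in JUN and at −123 to −116 in ATF3, and the CRE at −200 to −193 in JUND. JUNB, FOS and the second RefSeq promoter of ATF3 had none of these letters, and FOSL2 had a TRE at 5 to 11 bases past its start, outside the stretch taken. Thus 4 of the 6 genes with a promoter sequence held 1 of the 3 sites within 250 bases before to 50 after the start. Over all 35116 promoters of this length the TRE was in 7.71%, the CRE in 1.85% and the TRE-like letters in 2.61%. The share of promoters with any of the 3 sites was not counted, and ATF3 was searched at 2 promoters. The count of genes therefore cannot be set against these shares. FOSL1 had no entry. The summits are given in another build, so they were not placed on these bases, and a match of letters says nothing about binding.

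To determine whether the ranks of LSD1 at AP-1 genes differed between the genotypes, all 35861 regions in 4 lists were compared. Of the 16 member regions, 5 had a higher mean in KO1 cells and 11 a lower one, where 47.4% of all regions had a higher one. The median difference, KO1 minus parental, was −0.829 points over the members and −0.578 over all regions. The size of the difference had a median of 2.02 points over the members and 8.25 over all regions. A percentile near 100 has less room to differ, and the part of the members' higher percentiles in these smaller differences was not tested. Both KO1 libraries were above both parental ones in 2 of 16 members (12.5%), against 19.6% of all regions, and below them in 2 of 16 (12.5%), against 22.4%. By limma with Benjamini-Hochberg adjustment over all regions, 0 of the 16 members passed in either direction, where 0.566% of all regions were higher and 0.547% lower in KO1 cells. At an unadjusted p below 0.05, limma named 2 members, the regions of ATF3 at 31.6 kb and of FOSL2 at 17.3 kb, and 13.3% of all regions. With the exact permutation test, the smallest adjusted p over all regions was 0.793, and 0 regions had an unadjusted p below 0.05, which this design cannot reach.

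**Figure D2:**
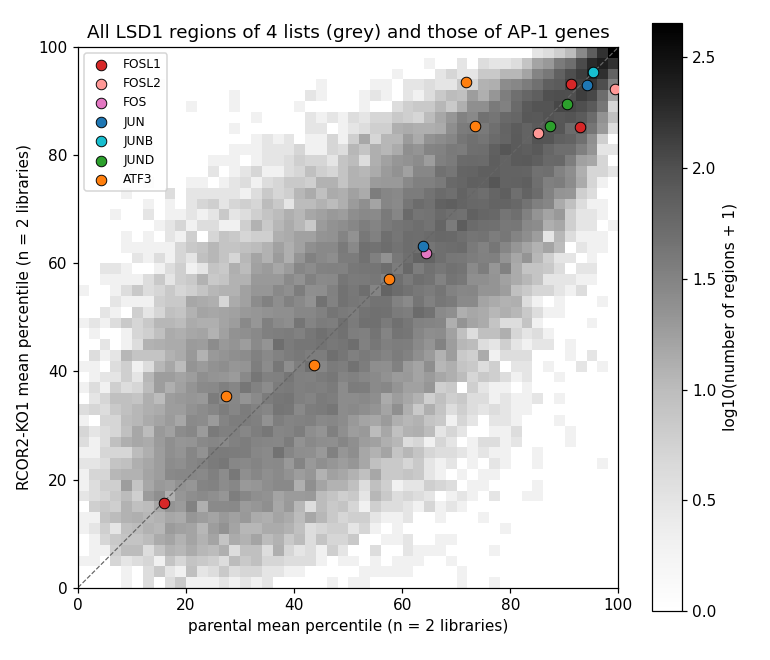
Mean within-list percentile of 2 parental libraries (x axis) against that of 2 RCOR2-KO1 libraries (y axis) for the 35861 regions in all 4 lists, with grey for the log10 of the number of regions plus 1 in each square and coloured points for the 16 regions of AP-1 genes. Most members lie near the dashed line of equal means in the upper right, and the ATF3 region with 71.8 in parental and 93.5 in KO1 cells lies farthest from it.

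Among the JUN genes, LSD1 was found at or next to the 5′ end in every library, with percentiles from 84.0 to 99.1. JUN encodes the partner that can also form a dimer with itself. The region next to its 5′ end, chr1:59249995-59250258, 0.127 kb upstream, had percentiles of 89.0 and 99.1 in parental and 95.4 and 90.6 in KO1 cells. The KO1 libraries lay between the parental ones, so the genotypes overlapped, with 94.1 ± 7.14 in parental and 93.0 ± 3.38 in KO1 cells (means ± SD of 2 libraries; two-sided p = 1 by the exact permutation test). The other region of JUN, chr1:59245793-59246086, lay at its 3′ end with percentiles of 57.4 and 70.4 in parental and 57.5 and 68.9 in KO1 cells. Both genotypes spanned nearly the same range there, and no list had a summit in the 3908 bp between these regions, which take up nearly the whole gene. In the RefSeq annotation of GRCh38.p14, the noncoding gene JUN-DT lies on the 5′ side of JUN within 10 kb.

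JUNB, a JUN protein that is known to dampen activation by JUN, had the region with the highest mean percentile of the JUN genes, though it was not the highest in every library. It lay 1.01 kb upstream of the 5′ end at chr19:12900810-12901173, with percentiles of 92.1 and 98.6 in parental and 92.9 and 97.8 in KO1 cells. The genotypes overlapped, and their means were 95.3 ± 4.57 and 95.4 ± 3.43 (exact permutation test, two-sided, p = 1). This region was the only one of JUNB in all 4 lists. Farther upstream, 8.29 kb from the 5′ end, chr19:12893667-12893743 had percentiles of 60.2 and 58.2 in parental cells and 26.5 in KO1 replicate 1, and KO1 replicate 2 had none within 500 bp. Its nearest summit was 765 bp away with a percentile of 40.4. Both KO1 libraries were thus below both parental libraries when summits up to 1000 bp apart were joined, with 59.2 ± 1.39 in parental and 33.5 ± 9.84 in KO1 cells. The difference was −25.7 points. The exact permutation test, two-sided, gave p = 0.333 for it, the smallest that 2 libraries against 2 allow, and limma gave an adjusted p of 0.4, so it did not pass. A further region past the 3′ end, chr19:12912631-12913066, had 18.1 and 49.5 in parental cells and 12.5 in KO1 replicate 2, and was in no more than 3 lists. KO1 replicate 2 alone had a summit in the gene as implied by the window, at chr19:12904783 with a percentile of 79.8. This summit was 2.78 kb from the implied 5′ end, and the RefSeq length of JUNB is 1.83 kb, so it may lie past the 3′ end. Parental replicate 1 alone had a weak summit at chr19:12907385 with 18.3. The window also holds HOOK2, which overlaps JUNB in the annotation, and PRDX2, so these regions are next to more than 1 gene.

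JUND, the JUN protein that is expressed most constantly, had a region at its 5′ end whose libraries differed by few points. This region, chr19:18392786-18392941, had percentiles of 86.4 and 88.4 in parental and 86.9 and 84.0 in KO1 cells. The genotypes overlapped by the value of KO1 replicate 1, with 87.4 ± 1.36 and 85.4 ± 2.02 (exact permutation test, two-sided, p = 0.667). The other region lay 4.22 kb past the 3′ end at chr19:18385702-18385848, with 94.6 and 86.3 in parental and 91.6 and 87.1 in KO1 cells, where the KO1 libraries again lay between the parental ones. The protein-coding gene IQCN lies on that side of JUND within 10 kb in the RefSeq annotation, so this region is next to more than 1 gene.

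At the FOS genes LSD1 lay upstream of the 5′ end in every library. FOS, the classical immediate early gene, had a region 0.554 kb upstream of its 5′ end at chr14:75744415-75744477, with percentiles of 86.4 and 89.3 in parental cells and 84.0 in KO1 replicate 1. KO1 replicate 2 had a summit 505 bp away with a percentile of 66.8, just outside the joining distance, so this region was counted in 3 lists. Joined at 1000 bp, both KO1 libraries were below both parental ones, with 87.8 ± 2.02 in parental and 75.4 ± 12.1 in KO1 cells. The spread of the KO1 libraries was close to the difference of −12.4 points, which did not pass (limma, adjusted p = 0.54; exact permutation test, two-sided, p = 0.333). The only region of FOS in all 4 lists, chr14:75749414-75750077, lay 0.746 kb past its 3′ end with 71.1 and 57.7 in parental and 73.3 and 50.7 in KO1 cells, and the genotypes overlapped. As in JUN, no list had a summit in the gene, over 4936 bp.

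FOSL1, whose protein FRA-1 lacks the activation domain of FOS, had a region 2.54 kb upstream of its 5′ end at chr11:65670197-65670888, with percentiles of 83.5 and 98.8 in parental and 95.5 and 90.9 in KO1 cells. The KO1 libraries lay between the parental ones. The mean percentile was 2.08 points higher in KO1 cells, whereas limma, which was fitted to normal scores of the ranks, gave an estimate of −0.09 ± 0.34 (SE), so the sign depended on the scale. Farther upstream, chr11:65674234-65674242 had 76.6 and 62.9 in parental cells and 70.9 in KO1 replicate 2, and KO1 replicate 1 had none. The gene itself had a single region, chr11:65663202-65663632, which was weak in every list, with 22.8 and 9.06 in parental and 26.7 and 4.46 in KO1 cells. Past the 3′ end, 3.01 kb from it, chr11:65655888-65656092 had 92.8 and 92.9 in parental and 91.2 and 79.5 in KO1 cells. There both parental libraries were above both KO1 libraries. The difference in the means was −7.55 points, smaller in size than the SD of 8.29 of the KO1 libraries (exact permutation test, two-sided, p = 0.333; limma, adjusted p = 0.64). Without KO1 replicate 2 it was −1.69 points. The genes CTSW, FIBP and CCDC85B lie on that side of FOSL1 in the RefSeq annotation. All 313 regions in 4 lists between 60 and 70 Mb of chromosome 11 had a median difference of −4.09 points, and the part of this in the values of FOSL1 was not tested. A last region, chr11:65652271-65652320, was weak with 5.55 and 38.0 in parental cells and 23.2 in KO1 replicate 1.

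FOSL2, which encodes FRA-2, had strong LSD1 regions at its start and inside the gene. The region with the highest mean percentile among the 16 in all 4 lists lay 17.3 kb from the 5′ end at chr2:28632219-28632363. Its percentiles were 98.9 and 99.9 in parental and 85.9 and 98.5 in KO1 cells. Both parental libraries were above both KO1 libraries, and the gap to KO1 replicate 2 was small whereas KO1 replicate 1 stood apart. The means were 99.4 ± 0.69 in parental and 92.2 ± 8.89 in KO1 cells. Their difference of −7.22 points did not pass over all regions (exact permutation test, two-sided, p = 0.333; limma, p = 0.0033 and adjusted p = 0.12). The difference rested on KO1 replicate 1. Without that library it was −0.93 points with an adjusted p of 0.72 by limma, and without KO1 replicate 2 it was −13.5 points with an adjusted p of 0.026, the only member called in any setting. Next to the 5′ end, 1.1 kb upstream, chr2:28613821-28613987 had a percentile of 95 in parental replicate 1 and 98.1 and 95.8 in KO1 cells. Parental replicate 2 had its summit 1324 bp away at chr2:28615311 with 97.5, so the start of FOSL2 had a strong summit in every library. Joined at 2000 bp, a distance chosen after seeing the data, this was 96.2 ± 1.77 in parental and 96.9 ± 1.58 in KO1 cells, with a mean of 96.6 over the 4 libraries that was above the 95.8 of the region inside the gene, and the genotypes overlapped (exact permutation test, two-sided, p = 0.667). A region 4.9 kb upstream, chr2:28610064-28610140, had 78.2 and 91.9 in parental and 82.3 and 86.0 in KO1 cells, again with KO1 between the parental libraries. The antisense gene FOSL2-AS1 overlaps FOSL2 in the annotation.

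Most other regions of FOSL2 were not shared by the libraries. The region chr2:28619052-28619266 had 60.0 in parental replicate 2 and 65.8 and 54.2 in KO1 cells, and parental replicate 1 had none. The 5 other regions of a single list were 3 in parental and 2 in KO1 libraries. Of these, chr2:28629723 in KO1 replicate 2 had a percentile of 86.6, and the remaining ones were between 6.29 and 11.7.

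ATF3, a stress-induced factor that represses its targets as a dimer with itself, was the only one of the 7 genes with regions in all 4 lists where both KO1 libraries were above both parental ones. The first, inside the gene 31.6 kb from the 5′ end at chr1:212769412-212769732, had percentiles of 77.6 and 66.1 in parental and 95.8 and 91.2 in KO1 cells. The lower KO1 library was 13.6 points above the higher parental one, and the means were 71.8 ± 8.13 in parental and 93.5 ± 3.21 in KO1 cells. The difference of 21.7 points was above 93.6% of the differences of all regions in 4 lists. The limma estimate was 1.08 ± 0.33 (SE) in normal scores with p = 0.0014, and the adjusted p of 0.083 did not pass (exact permutation test, two-sided, p = 0.333). Leaving out each library in turn gave differences from 15.9 to 27.4 points and no adjusted p below 0.09 by limma. The second, at chr1:212781742-212781916 and 43.8 kb from the 5′ end, had 75.7 and 71.0 in parental and 90.5 and 80.3 in KO1 cells. The KO1 libraries were higher here too, with 73.4 ± 3.34 against 85.4 ± 7.21, but the difference of 12.0 points was closer to the spread of the libraries (limma, adjusted p = 0.51; exact permutation test, two-sided, p = 0.333). It was 6.89 points without KO1 replicate 1.

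The 5′ end of ATF3, taken as the outermost start, had weaker summits than those of the JUN genes. This holds for the outermost start alone, and summits were not placed on other starts of the gene. The region 43.8 kb from the outermost start had percentiles of 71.0 to 90.5. A second RefSeq start of ATF3 lies 49.6 kb past the first in GRCh38.p14, and in hg19 the regions from 48.4 to 51.1 kb, described below, lie around that distance. The region at 43.8 kb lies several kb short of it, and whether that region is next to a further start of ATF3 was not tested. A region 5.58 kb upstream at chr1:212732390-212732450 had 11.0 and 43.7 in parental and 35.8 and 35.0 in KO1 cells. The difference of 8.1 points was far below the SD of 23.1 of the parental libraries, and the KO1 libraries lay between the parental ones. The regions nearest to the 5′ end were chr1:212740580-212740646, 2.61 kb inside the gene, with 37.8 and 49.3 in parental and 42.3 and 40 in KO1 cells, and chr1:212735006-212735167, 2.91 kb upstream, with 42.8 and 72.3 in parental and 52.3 and 61.9 in KO1 cells. In both the KO1 libraries again lay between the parental ones.

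With summits joined at 500 bp, ATF3 also held the only region of the 7 genes with a summit in both libraries of a single genotype alone. It was chr1:212786272-212786448, 48.4 kb from the 5′ end, with percentiles of 33.1 and 17.4 in the KO1 libraries. This was 1 of 42 regions (2.38%), and 3.62% of all LSD1 regions were in both KO1 and no parental list. No region of the 7 genes was in both parental and no KO1 list, against 4.24% of all regions. Of the remaining regions of ATF3, chr1:212788891-212789365 had 1.52 in parental replicate 2 and 20.4 in KO1 replicate 2, and the 7 regions of a single list were 3 in parental and 4 in KO1 libraries. Apart from chr1:212784082 in parental replicate 1, with a percentile of 34.3, these were between 0.433 and 3.85.

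**Figure D3:**
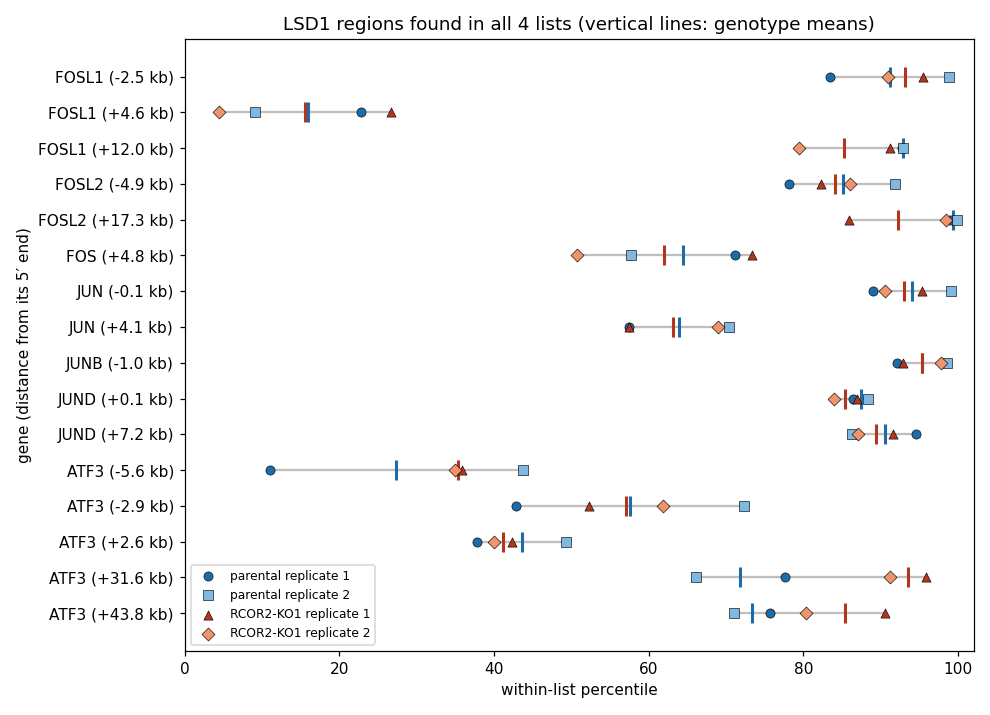
Within-list percentile (x axis) of the 16 regions of AP-1 genes that had a summit in all 4 lists, 1 line for each region with its distance from the 5′ end in kb. Points are libraries, blue for parental and red or orange for RCOR2-KO1, and vertical lines are the means of 2 libraries. The KO1 libraries lie above the parental ones in the 2 lowest lines, both of ATF3, and below them in the regions at 12.0 kb of FOSL1 and 17.3 kb of FOSL2.

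Ranked by its strongest region in all 4 lists, the order of the genes was FOSL2 (mean percentile over the 4 libraries 95.8, lowest to highest library 85.9 to 99.9), JUNB (95.4, 92.1 to 98.6), JUN (93.5, 89.0 to 99.1), FOSL1 (92.2, 83.5 to 98.8), JUND (89.9, 86.3 to 94.6), ATF3 (82.7, 66.1 to 95.8) and FOS (63.2, 50.7 to 73.3). The ranges of all neighbours in this order overlapped. JUND was ranked by its region past the 3′ end, and its region at the 5′ end had a mean of 86.4. Compared within each library, FOS lay below every other gene in all 4, ATF3 included, but its stronger upstream region was in 3 lists at 500 bp. With that region joined at 1000 bp, FOS had a mean of 81.6, and the start of FOSL2 had 96.6 when joined at 2000 bp.

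At most of these regions the 2 parental libraries were farther apart than the KO1 libraries. The KO1 libraries were farther apart at ATF3 at 43.8 kb, FOSL2 at 17.3 kb and FOSL1 at 12.0 kb. This was also so at FOSL1 in the gene, FOS past its 3′ end and JUND at its 5′ end. The median SD was 8.13 points in parental and 3.41 in KO1 cells over the 16 members, and 6.46 in both genotypes over all regions. In 9 of the 16 members (56.2%) both KO1 libraries lay between the parental ones, against 14.3% of all regions in 4 lists, and both parental libraries lay between the KO1 ones in 2 (12.5%), against 13.4%. These counts were chosen after the values were seen. Parental replicate 2 was above parental replicate 1 in 11 of the 16 members (68.8%) and in 63.2% of all regions. The median percentile of the members was 77.9 and 79.3 in the parental and 86.4 and 82.1 in the KO1 libraries. The sign of the difference turned with the library that was left out at 11 of the 16 members, whereas the regions of ATF3 at 31.6 and 43.8 kb, FOSL2 at 17.3 kb, FOSL1 at 12.0 kb and JUND at its 5′ end kept their direction without any 1 library.

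**Figure D4:**
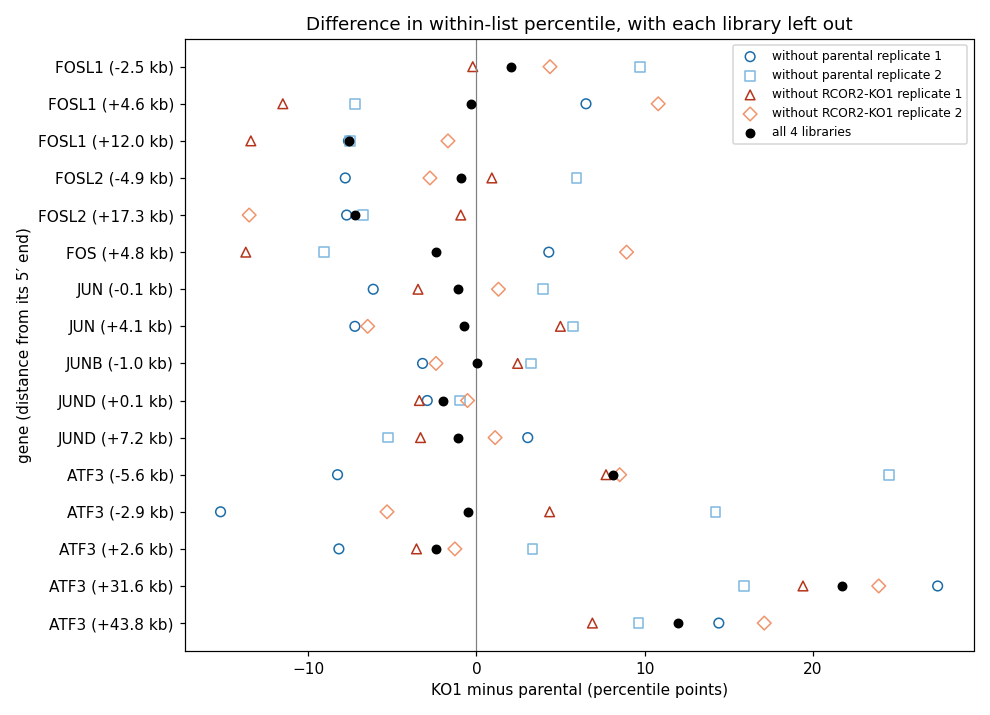
Difference in mean within-list percentile, KO1 minus parental in percentile points (x axis), for the 16 regions in all 4 lists. Black points use all 4 libraries and open symbols leave out the named library, with 3 symbols for FOSL1 at -2.5 kb, whose summits were not joined without parental replicate 1. The symbols of ATF3 at 31.6 kb stay between 15.9 and 27.4, whereas those of 11 regions lie on both sides of 0.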

How the data were processed

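LSD1 CUT&RUN libraries of MDA-MB-231 cells were analysed, 2 from the parental line and 2 from RCOR2-KO1. Per the submitters' processing notes, reads were handled with FastQC 0.11.2, Bowtie2 2.3.3.1, Picard and MACS2 2.1.0 on hg19. The authors deposited for each library 1 summit per peak and a −log10 value, of p or of q (which is not given in the sources used here), and rabbit IgG libraries served as input. The threshold of the caller and the depth of the libraries are not given in the sources used here, so no interval from counts is given, and the number of summits per list is the only measure of size.

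Python 3.11.15 with pandas 2.3.3 and numpy 2.4.6 was used. Summits were ranked within a list, summits at most 500 bp apart were joined, and the highest summit of a list gave its percentile in a region. Regions in all 4 lists were compared between genotypes by the exact permutation test over libraries, two-sided, and by limma 3.58.1 (R 4.3.3) with trend on normal scores of the ranks, with Benjamini-Hochberg adjustment over all of them at 0.05. These steps were also run on simulated lists with independent noise between libraries, which checks the code and not the error rate in the real lists.

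The 7 genes, the windows and the tests were chosen with earlier results of these data known. In each window the 2 strongest regions in all 4 lists, the region nearest to the 5′ end, regions of a single genotype, the 3 largest differences in each direction and genotypes more than 10 points apart were to be named, and others are given to account for all members. Gene ends were taken from the windows, and strands from the RefSeq promoter table of GRCh38.p14, except that of FOSL1, which is background knowledge. No annotation of GRCh37 was used, so other AP-1 genes (FOSB, ATF2, ATF4, BATF, BATF3, JDP2, MAFF, MAFG and MAFK) were not analysed here. Alternatives tried were lists cut to the shortest or to their upper 50%, joining at 250 or 1000 bp, windows 5 kb narrower on each side, percentiles over the regions in all 4 lists, other scales of the fit, the replicate number as a block and each library left out. Joining at 2000 bp was added after seeing the data. Figures were drawn with matplotlib 3.10.9.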

Additional observations from a re-analysis of the deposited data

How the results depend on the processing

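The number of member regions, 42, was 22 in the upper 50% of each list and 35 to 40 with a library left out, and those in all 4 lists, 16, became 16 to 19 when only the remaining lists were required. Regions of both parental and no KO1 list, 0, were 1 in the upper 50% and 2 to 4 with a library left out. Regions of both KO1 and no parental list, 1, were 0 in the upper 50%, 2 when joined at 250 bp and 2 to 8 with a library left out, where the genotype with 1 library needs a single summit. Joined at 1000 bp the count was also 1, but for another region of ATF3, made of the summits chr1:212793485 and chr1:212794049. The median difference over members was −0.829 points and ranged from −4.66 (without parental replicate 1) to 3.33 (without parental replicate 2), so its direction rested on single libraries. The regions called by limma over the genome, 399, were 68 in the upper 50%, 0 on the percentile scale (4171 at an unadjusted p below 0.05), and 202 to 337 with a library left out (202 without parental replicate 1, 220 without parental replicate 2 and 261 without KO1 replicate 2), where the lone library is assumed to vary like the others. Member regions called were 0 in all these settings but 1, without KO1 replicate 2, which called 1 (FOSL2 at 17.3 kb). Labels share replicate numbers without saying that they pair the libraries, and the deviations of equal numbers had a correlation of 0.00722 over regions. With the replicate number as a block, 522 regions of the genome and 0 members were called, all 399 among them. The adjusted p of the ATF3 region at 31.6 kb by limma was then 0.062. Over the settings with all 4 libraries and normal scores it ranged from 0.062 to 0.11. On the other scales of the fit this region was not called, and its adjusted p there is not given. The blocked permutation test cannot go below p = 0.5, and with the block no member's call changed. With all 4 libraries, the sign of the difference turned at chr11:65663202 of FOSL1 (0.17 points with percentiles over the regions in all 4 lists) and at chr19:12900810 of JUNB (−0.0982 in lists cut to the shortest and −0.135 with percentiles over the regions in all 4 lists), where it was −0.348 and 0.0252. With a library left out, the sign turned at 11 regions, whose differences ranged from −7.22 to 5.75 (JUN at its 3′ end), −6.13 to 3.97 (JUN at its 5′ end), −8.25 to 24.5 (ATF3 at −5.58 kb), −15.2 to 14.2 (ATF3 at −2.91 kb), −8.17 to 3.33 (ATF3 at 2.61 kb), −7.79 to 5.94 (FOSL2 at −4.9 kb), −11.5 to 10.8 (FOSL1 in the gene), −0.217 to 9.72 (FOSL1 at −2.54 kb, over 3 of the 4 libraries left out, since its summits were more than 500 bp apart without parental replicate 1), −13.7 to 8.92 (FOS at 4.75 kb), −3.2 to 3.25 (JUNB at −1.01 kb) and −5.26 to 3.05 (JUND at 7.22 kb). The difference of the ATF3 region at 31.6 kb doubles in scale when ranks are taken in the upper 50% of each list, where it was 43.3 points. Depth is unknown, so a summit missing from a list was not called at that depth and is not shown to be absent.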
